A study of Mus musculus with 10 samples.

Results

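This is an account of 42 interferon-stimulated genes, taken by symbol from a count table of 55486 genes, in mouse mammary fibroblasts and tumor cells that were cultured apart or together. Each of the 42 symbols had exactly 1 gene in the table. The genes were chosen as known interferon targets, and no measured value entered the rule, although results of these data were known when it was drawn up.

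Bulk RNA sequencing covered 10 libraries from 5 collagen/basement membrane extract gels, each harvested after 7 days. Normal fibroblasts (NFs) were sorted from mammary glands of mTmG mice at 8 weeks of age into a CD26- and a CD26+ subset (CD26 is the surface protein encoded by Dpp4) and expanded in 2D for a week. mTmG cells are red (Tomato) until Cre recombinase makes them green (GFP), and the CD26+ NFs alone were turned green with a Cre-expressing adenovirus, so CD26 status and exposure to a virus cannot be told apart in any comparison of the subsets. The tumor cells carried WapCre and Cdh1F/F, in which a milk-protein promoter drives Cre in mammary epithelium to delete E-cadherin, together with a further floxed allele, a model of invasive lobular carcinoma. Gel 1 held both NF subsets in equal parts without tumor cells, gel 2 held 13-MCB-17 tumor cells alone and gel 3 those of the line 10-SJK-221. Gel 4 combined both NF subsets with 13-MCB-17 cells, and gel 5 combined them with the other line. Cells were sorted by color, which gave 1 library of each subset from NFs alone, 2 of each subset from co-culture, 2 of tumor cells alone and 2 of co-cultured tumor cells. Per the study's methods NFs of several mice were pooled for a sort, and each tumor line came from an end-stage tumor, so the p-values below measure the spread between these libraries and not between animals. NFs alone came from gel 1 only, which leaves no spread between gels in that arm.

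Type I interferons are secreted when a cell senses viral or misplaced nucleic acid. They bind the receptor made of IFNAR1 and IFNAR2, whose kinases activate a complex that contains STAT2 and IRF9 and binds the interferon-stimulated response element (ISRE) in target promoters. Interferon-γ works through a different element, the γ-activated site (GAS), and is a strong inducer of guanylate-binding GTPases and antigen processing genes. Many targets also keep a low level without added interferon, in fibroblasts and epithelial cells alike.

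Promoter sequence was taken from the RefSeq table of GRCm38.p6, which gives 250 bases before and 50 after each start and had an entry for 32 of the 42 genes. An ISRE was searched for on both strands as GAAA, any 2 bases, and GAAA again, a GAS as TTCNNNGAA, which reads the same on both strands. The ISRE letters were in 17 of the 32 genes (53.1%), against 1079 of all 27025 genes with a window (3.99%), and the GAS letters were in 7 of 32 (21.9%) against 2582 genes (9.55%). A match is a description of letters and does not show that a factor binds there. The 5 windows below belong to the genes on which the results turn most: Isg15 and Ifit1 as typical targets, Bst2 and Oasl1, which were higher in CD26+ NFs, and Gbp2, which moved in opposite directions in NFs and tumor cells. ISRE matches are in capitals, and overlapping matches run together.
Isg15, chr4:156200769-156201068, minus strand: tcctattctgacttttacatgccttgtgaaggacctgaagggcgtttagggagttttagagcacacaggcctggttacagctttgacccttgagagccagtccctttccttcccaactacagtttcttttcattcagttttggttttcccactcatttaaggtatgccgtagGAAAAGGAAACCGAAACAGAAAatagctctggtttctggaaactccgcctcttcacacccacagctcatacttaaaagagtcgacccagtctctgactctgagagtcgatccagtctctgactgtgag
Ifit1, chr19:34640639-34640938, plus strand: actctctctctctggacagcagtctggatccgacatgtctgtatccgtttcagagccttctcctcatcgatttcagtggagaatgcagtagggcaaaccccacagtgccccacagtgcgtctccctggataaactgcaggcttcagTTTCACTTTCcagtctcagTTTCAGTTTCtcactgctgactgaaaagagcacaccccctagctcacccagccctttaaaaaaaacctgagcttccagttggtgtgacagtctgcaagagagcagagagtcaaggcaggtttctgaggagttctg
Bst2, chr8:71537423-71537722, minus strand: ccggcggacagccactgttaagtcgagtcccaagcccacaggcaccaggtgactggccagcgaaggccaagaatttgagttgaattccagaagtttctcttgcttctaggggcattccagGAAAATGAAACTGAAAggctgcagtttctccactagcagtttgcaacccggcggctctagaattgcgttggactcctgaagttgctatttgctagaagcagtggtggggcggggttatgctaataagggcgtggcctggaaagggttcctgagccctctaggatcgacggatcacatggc
Oasl1, chr5:114922990-114923289, plus strand: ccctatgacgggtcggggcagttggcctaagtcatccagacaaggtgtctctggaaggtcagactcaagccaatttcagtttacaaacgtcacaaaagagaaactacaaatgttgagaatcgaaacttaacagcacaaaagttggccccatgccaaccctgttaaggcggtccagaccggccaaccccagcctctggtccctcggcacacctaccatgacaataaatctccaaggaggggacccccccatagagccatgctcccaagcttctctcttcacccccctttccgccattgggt
Gbp2, chr3:142620413-142620712, plus strand: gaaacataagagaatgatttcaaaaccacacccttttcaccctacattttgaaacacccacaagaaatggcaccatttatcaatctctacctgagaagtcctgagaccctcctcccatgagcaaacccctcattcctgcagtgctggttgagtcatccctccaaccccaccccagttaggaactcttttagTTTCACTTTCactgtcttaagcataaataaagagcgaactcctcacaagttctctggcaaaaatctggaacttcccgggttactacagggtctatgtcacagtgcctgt
Isg15 held 3 ISRE matches, starting 78, 72 and 66 bases before the transcript start, Ifit1 held 2 (104 and 85 bases before) and Bst2 held 2 (130 and 124 bases before), with a GAS match 136 bases before the start. Gbp2 held 1, at 59 bases before the start, and the Oasl1 window held neither set of letters.

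Depth was even, at 14142334 to 18408940 counts per library, and levels are given in CPM (counts per 1000000 of a library's total), so that 3 counts, taken here as the floor, stand for 0.163 to 0.212 CPM. Col1a1 was at 7882 to 18560 CPM in NFs and 1.78 to 89.1 in tumor cells, while Epcam, an epithelial adhesion protein, had 335 to 432 CPM in tumor cells and no count in lone NFs. Cdh1, the E-cadherin gene that the tumor genotype deletes, was still at 140 to 269 CPM in tumor cells, and counts per gene do not tell whether these reads lie outside the deleted part. Epcam reached 6.42 to 15.9 CPM in co-cultured NFs, and the median of 8 epithelial markers there was 1.94% and 2.80% (gel 4, CD26- and CD26+) and 2.2% and 4.63% (gel 5) of its level in the tumor cells of the same gel. In the other direction, 8 fibroblast markers in co-cultured tumor cells had medians of 0.0388% and 0.0790% of the NF level. Of 8 myeloid markers, C1qb and Tyrobp had 0 counts in all 10 libraries and Ptprc did not exceed 0.127 CPM. Their summed level, 11.4 to 62.9 CPM in NFs and 47.9 to 300.9 in tumor cells, was mostly Cd68, a lysosomal protein (299 CPM in 13-MCB-17 cells alone), except in lone NFs, where Lyz2 (lysozyme) had 6.02 (CD26-) and 4.07 CPM (CD26+) and Cd68 3.48 and 6.53. Lymphoid markers summed to 0.683 to 4.37 CPM and endothelial markers to 1.37 to 22.9 CPM, the latter highest in co-cultured CD26+ NFs (12.9 and 22.9). In bulk libraries fewer expressing cells and less RNA per cell cannot be told apart.

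**Figure D1:**
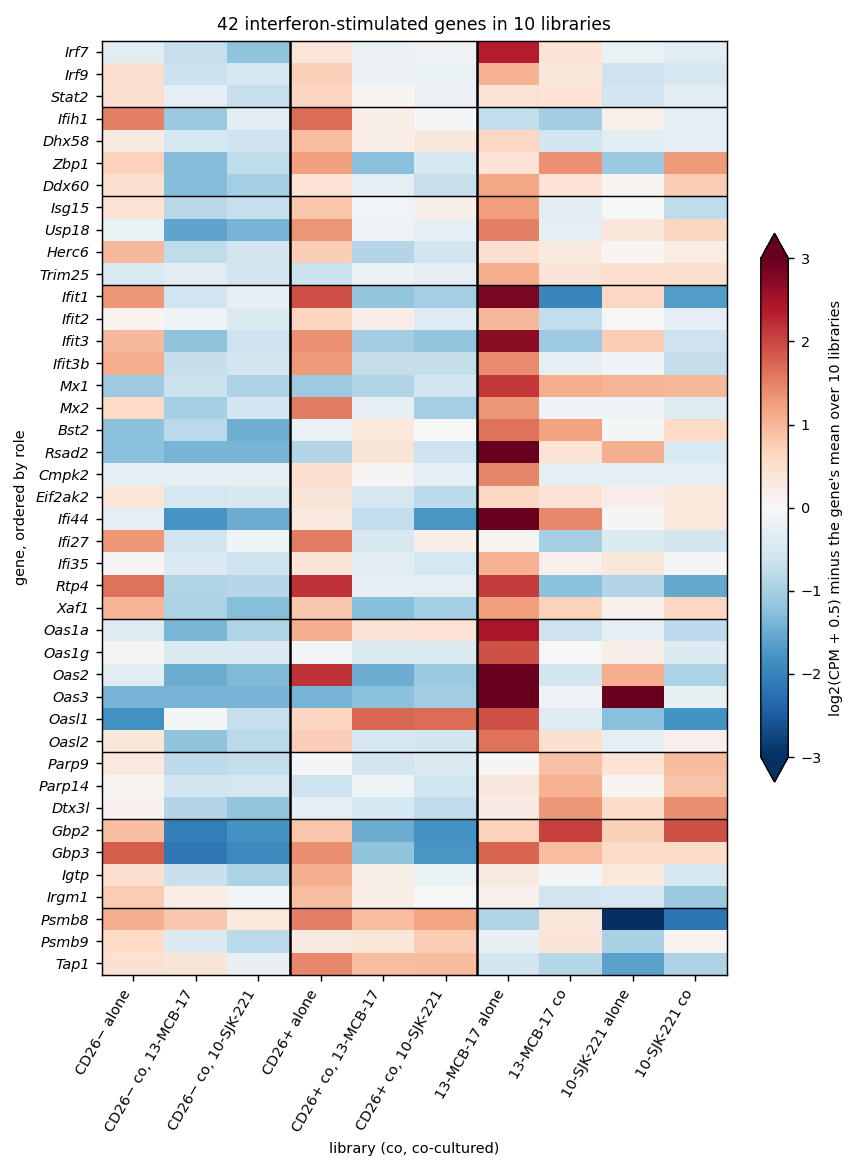
Levels of all 42 genes (log2 of CPM + 0.5, minus each gene's mean over the 10 libraries; colors end at ±3) by library, with genes in rows by role and libraries in columns by cell type. The column of 13-MCB-17 cells alone held the highest value of 24 of the 42 genes, and the columns of CD26- NFs co-cultured with either line held the lowest value of 24. The same was not counted over all genes.

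Across the 10 libraries, 13-MCB-17 cells alone had the highest CPM for 24 of the 42 genes and CD26+ NFs alone for 10, whereas CD26- NFs from co-culture with 13-MCB-17 cells had the lowest for 17 and those from co-culture with 10-SJK-221 cells for 7, ties at 0 going to the library listed first. The heat map of the 42 genes shows these columns at the extremes. The same count was not made over all genes, so it does not tell these genes from others. The paragraphs that follow give the levels by role, and the tests come after them.

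The transcription factors were present in all 10 libraries. Irf7, the factor that amplifies interferon production, was at 6.02 (CD26-) and 9.97 CPM (CD26+) in NFs alone and at 4.54, 3.05 (CD26-), 6.55 and 6.86 CPM (CD26+) in co-culture, and at 41.0 and 6.62 CPM in 13-MCB-17 and 10-SJK-221 cells alone and 10.3 and 5.93 in these lines after co-culture. A single library, 13-MCB-17 cells alone, stood above all others for Irf7. Irf9 and Stat2, which encode parts of the ISRE-binding complex, ranged from 11.2 to 37.0 and 15.9 to 41.0 CPM, and for both the 2 libraries of NFs alone were above all 4 of co-cultured NFs.

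Among nucleic acid sensors, Ifih1 (MDA5, a sensor of long double-stranded RNA) was at 9.62 and 10.9 CPM in NFs alone, at 1.15 to 3.60 in co-cultured NFs and at 1.24 to 3.44 in tumor cells. Zbp1, a sensor of Z-form nucleic acid that can trigger necroptosis, went in NFs from 10.1 and 14.8 CPM without tumor cells to a range of 2.18 to 4.03 beside them. In tumor cells Zbp1 went the other way, from 8.20 (13-MCB-17) and 2.54 CPM (10-SJK-221) alone to 16.5 and 15.3 in co-culture, with no overlap between cultures in either cell type. Dhx58 (LGP2, a regulator of RNA sensing) ranged from 2.24 to 7.58 CPM and the helicase Ddx60 from 0.666 to 5.97.

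The ISG15 pathway attaches a ubiquitin-like protein to others. Isg15 itself was at 10.0 (CD26-) and 13.2 CPM (CD26+) in NFs alone, and at 3.82 and 4.32 (CD26-) and 6.81 and 8.41 CPM (CD26+) in co-culture. In tumor cells it was at 18.1 and 7.13 CPM alone and 5.66 and 4.05 co-cultured, in the order 13-MCB-17 and 10-SJK-221. Every co-cultured library was below every library grown alone within NFs and within tumor cells. Usp18, which removes ISG15 and restrains the interferon receptor, was at 2.98, 0.848 and 1.04 CPM in CD26- NFs (gels 1, 4 and 5), against 9.62, 3.08 and 2.90 in CD26+ NFs, and at 11.0, 4.58, 2.83 and 5.76 in tumor cells of gels 2 to 5. CD26+ NFs exceeded CD26- NFs in each gel. Herc6, the main ISG15 ligase of the mouse, ranged from 1.03 to 5.03 CPM, and Trim25, a ubiquitin ligase of RNA sensing, from 47.8 to 161.

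Of the IFIT family, which binds viral RNA, Ifit1 was at 4.78 and 7.72 CPM in CD26- and CD26+ NFs alone and at 0.450 to 1.32 in co-cultured NFs. Tumor cells had 14.6 and 2.80 CPM when grown alone and 0.0566 and 0.171 in co-culture, the last values standing for 1 and 3 counts. Ifit2 ranged from 2.83 to 10.4 CPM, Ifit3 from 0.0606 to 7.99 and Ifit3b from 0 to 1.68, and each was highest in 13-MCB-17 cells alone. Ifit3 and Ifit3b, like Mx1 and Mx2, Gbp2 and Gbp3, Oas1a and Oas1g, and Oasl1 and Oasl2, are close paralogs between which reads could be split.

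The other antiviral effectors did not share 1 pattern. Bst2 (tetherin, which holds budding virus at the membrane) was at 12.9, 17.4 and 10.9 CPM in CD26- NFs, against 27.3, 38.9 and 31.2 CPM in CD26+ NFs in gels 1, 4 and 5, so that the subsets did not overlap. In tumor cells Bst2 was at 97.3 and 30.4 CPM alone and 73.1 and 47.3 in co-culture. Rsad2 (viperin) was almost absent from NFs (0 to 1.22 CPM) and reached 21.9 CPM in 13-MCB-17 cells alone, 2.23 in 10-SJK-221 cells alone and 1.24 and 0.456 in co-culture. Ifi44 was likewise highest in 13-MCB-17 cells alone, at 28.0 CPM against 1.88 to 4.69 in co-cultured tumor cells, 1.46 in 10-SJK-221 cells alone and 0.0606 to 1.82 in NFs. Mx1, a dynamin-like GTPase, had no counts in either lone NF library, 0.0575 to 0.212 CPM after NFs had shared a gel with tumor cells, and 1.60 to 4.13 CPM in the tumor cells themselves. The levels in co-cultured NFs are 1 to 3 counts, of which the estimated tumor share made up 18.7% to 76.3%, and for Ifi44 that share was 20.4% to 150.0% of the NF level. Mx2 ranged from 0.283 to 4.14 CPM, and the mitochondrial nucleotide kinase Cmpk2 was at the floor or below in 8 of 10 libraries, with 1.20 CPM in 13-MCB-17 cells alone and 0.351 in CD26+ NFs alone. Eif2ak2 (PKR, which halts translation on double-stranded RNA) was at 49.9 and 50.8 CPM in NFs alone, 22.2 to 27.8 in co-cultured NFs and 44.4 to 60.1 in tumor cells. Ifi27 was at 103 and 123 CPM in NFs alone, 28.2 to 47.6 in co-cultured NFs and 20.5 to 44.3 in tumor cells. The remaining effectors were Ifi35 (7.31 to 24.1 CPM over the 10 libraries), Rtp4 (0.171 to 8.35) and Xaf1 (2.38 to 16.1), and each of them was higher in both libraries of NFs alone than in any of co-cultured NFs.

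Oligoadenylate synthetases make the messenger that activates RNase L. Oas3 had 0 counts in both libraries of NFs alone and at most 0.141 CPM in co-cultured NFs, but 46.4 and 10.3 CPM in 13-MCB-17 and 10-SJK-221 cells alone and 0.735 and 0.627 in co-culture. Oas2 was at 0.621 and 5.75 CPM in CD26- and CD26+ NFs alone, at 0 to 0.141 in co-cultured NFs, at 21.1 and 2.48 in tumor cells alone and at 0.453 and 0.228 in co-culture. Only the lone tumor cells of either line had Oas3 above 1 CPM, and Oas2 was above 1 CPM in CD26+ NFs alone and in both tumor lines alone. Oas1a was at 0.621, 0.0606 and 0.288 CPM in CD26- NFs, against 2.60, 1.41 and 1.49 in CD26+ NFs of gels 1, 4 and 5, and at 0.342 to 7.44 in tumor cells. Oas1g did not exceed 0.255 CPM outside 13-MCB-17 cells alone (2.01). Oasl1, which has no synthetase activity and is known to restrain translation of Irf7 mRNA, was at 0.435, 2.73 and 1.55 CPM in CD26- NFs, against 4.70, 10.4 and 10.2 in CD26+ NFs of gels 1, 4 and 5. Tumor cells had 12.2 and 0.891 CPM when grown alone and 2.04 and 0.456 in co-culture, so it was higher in co-culture in NFs and lower in co-culture in both tumor lines. Oasl2 ranged from 5.09 to 39.6 CPM.

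Parp9 and Dtx3l form a complex of an ADP-ribosyltransferase family member and a ubiquitin ligase, and their genes are neighbours whose exons overlap in part. Parp9 was at 13.4 to 29.4 CPM in NFs and rose from 24.1 and 31.1 to 43.2 and 45.5 in tumor cells, and Dtx3l was at 8.40 to 21.9 in NFs and went from 23.6 and 29.6 to 50.0 and 52.9. Parp14, a macrodomain ADP-ribosyltransferase, was at 13.7 to 22.5 CPM in NFs, 27.2 and 22.1 in tumor cells alone and 44.9 and 39.3 in co-culture.

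Among interferon-inducible GTPases, Gbp2 was at 47.4 and 45.2 CPM in CD26- and CD26+ NFs alone, at 5.70 and 6.91 in co-cultured CD26- NFs and at 8.67 and 6.93 in co-cultured CD26+ NFs. In tumor cells it was at 41.1 and 41.5 CPM alone and 105 and 95.5 co-cultured. The 4 libraries grown alone thus lay close together, and in shared gels every tumor library was above every NF library. Reads from tumor cells in the sort, estimated from the epithelial markers, would account for 35.8% and 30.4% (CD26-) and 33.9% and 63.9% (CD26+) of the Gbp2 level in co-cultured NFs of gels 4 and 5. Gbp3 was at 13.0 and 9.62 CPM in NFs alone, 0.364 to 1.16 in co-cultured NFs and 5.13 to 12.2 in tumor cells, and the immunity-related GTPases Igtp and Irgm1 ranged from 2.07 to 9.97 and 4.28 to 19.4 CPM.

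Psmb8, an immunoproteasome subunit, was at 9.44 to 22.4 CPM in NFs, at 3.75 and 9.56 in 13-MCB-17 cells alone and co-cultured, and at 0.445 and 1.25 in 10-SJK-221 cells. Its partner subunit Psmb9 ranged from 0.763 to 3.75 CPM. Tap1, which carries peptides into the endoplasmic reticulum, was at 27.0, 25.9 and 16.9 CPM in CD26- NFs, against 54.4, 37.5 and 38.5 in CD26+ NFs of gels 1, 4 and 5, with 6.11 to 13.2 in tumor cells. Psmb9 and Tap1 are neighbours with overlapping exons, and over 10% of the exon length of Psmb8, Herc6, Ifi35 and Rtp4 overlaps another gene. Whether strand was used in counting is not stated, so reads there cannot be assigned with certainty.

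**Figure D2:**
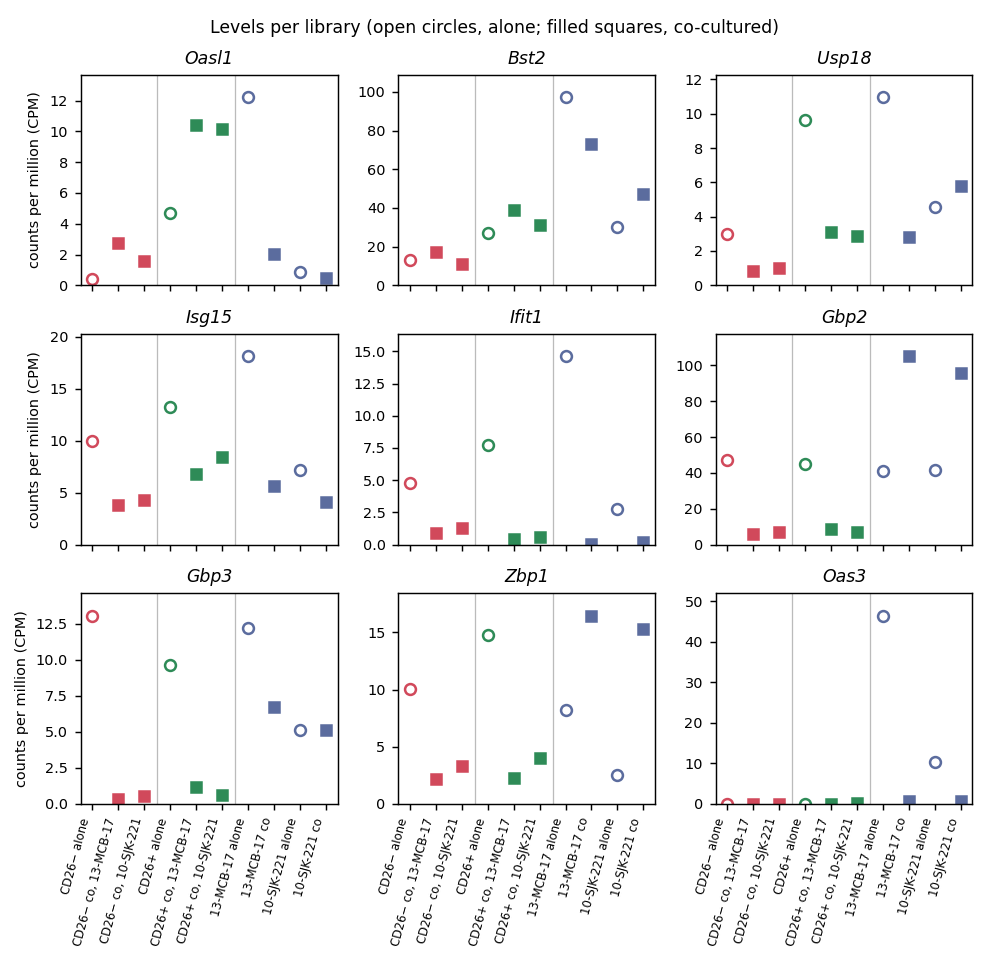
CPM per library of 9 genes (linear axes from 0), with CD26- NFs in red, CD26+ NFs in green and tumor cells in blue, open circles for cells alone and filled squares for co-culture. Oasl1, Bst2 and Usp18 were higher in CD26+ than in CD26- NFs of the same gel, while Gbp2 and Zbp1 were lower in co-cultured NFs and higher in co-cultured tumor cells.

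To compare the NF subsets, CD26+ and CD26- NFs were set against each other over gels 1, 4 and 5 with culture as a term. Values given as ± below are log2 fold changes with their SE, and a gene was called at an adjusted p under 0.05 (edgeR's quasi-likelihood test, Benjamini-Hochberg over all genes tested). Of 36 genes that passed the filter on low counts, 5 were higher in CD26+ NFs and 0 were lower, where 3.93% and 3.60% of all 15013 genes were called higher and lower. The 5 were Oas1a (2.41 ± 0.546, adjusted p = 0.0313), Oasl1 (2.37 ± 0.322, adjusted p = 0.00545), Usp18 (1.52 ± 0.285, adjusted p = 0.0171), Bst2 (1.08 ± 0.180, adjusted p = 0.011) and Tap1, and the median over the 36 genes was 0.18, against 0 for all genes. At an unadjusted p under 0.05, 9 were higher and 0 lower, and DESeq2 also called 5. The share of all genes at that unadjusted threshold was not counted. Isg15 (0.57 ± 0.215, adjusted p = 0.14), Irf7 (0.64 ± 0.225, adjusted p = 0.118) and Stat2 (0.18 ± 0.148, adjusted p = 0.491) were not called.

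Within the gels, after the TMM scaling used in the tests (trimmed mean of M-values, which sets libraries level over the bulk of genes), 14 of the 36 genes were higher in CD26+ NFs in all 3 gels and 2 were lower in all 3, where 21.1% and 26.0% of all genes tested did so. TMM lowered the log2 ratios of CD26+ over CD26- NFs by 0.14 to 0.20 relative to plain CPM, with which 19 genes were higher in all 3 gels and 1 was lower (36.4% and 12.6% of all genes). The plot of ratios within gels shows Usp18, Bst2, Oas1a and Oasl1 to the right of zero in each gel, among others. Calls rested on few libraries: without gel 1 there were 3, without gel 4 there were 3 and without gel 5 there were 0, a setting in which 0.118% of all genes were called. Epithelial markers were also higher in CD26+ than in CD26- NFs of both shared gels (153.3 and 277.4 against 105.7 and 132.1 CPM summed). In gels 1, 4 and 5 the 5 endothelial markers summed to 4.91, 22.9 and 12.9 CPM in CD26+ NFs against 1.37, 9.88 and 8.00 in CD26- NFs, Cd68 was at 6.53, 53.5 and 32.2 against 3.48, 32.3 and 19.6, and the sum of the 8 fibroblast markers, mostly Col1a1, Col1a2 and Col3a1, was lower in CD26+ NFs (69500, 23320 and 29340 against 74840, 38000 and 41530 CPM). Dcn and Thy1 of the same list were higher in CD26+ NFs of each gel, Thy1 at 456, 640 and 1293 against 223, 464 and 725 CPM. The part of these in the result was not tested. With the estimated tumor share subtracted from co-cultured NFs, the count was again 5.

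In co-culture alone, 38 genes were tested and 5 were higher in CD26+ NFs with 0 lower (3.48% and 2.53% of all genes), with a median of 0.28 against 0.01. They were Oasl1 (2.10 ± 0.325, adjusted p = 0.00186), Bst2 (1.14 ± 0.218, adjusted p = 0.00743), Usp18 (1.48 ± 0.382, adjusted p = 0.0374), Oas1a (2.81 ± 0.735, adjusted p = 0.0403) and Rsad2, which had 24 counts over both CD26+ libraries and 0 in both CD26- libraries, at least 4.32-fold higher against the floor of 3 counts per library. Of these counts 19 were in gel 4 and 5 in gel 5, and from the lower library the bound was 1.94-fold. Isg15 (0.73 ± 0.262, adjusted p = 0.131), Irf7 (0.65 ± 0.283, adjusted p = 0.215) and Stat2 (0.25 ± 0.190, adjusted p = 0.511) did not pass. With the gel as a block, Isg15 was called (0.73, adjusted p = 0.0396). The count was 7 with that block, 2 with DESeq2, 2 with no filter on low counts and 3 with the tumor share subtracted, and it was 2 or 1 without CD26- NFs of gel 4 or gel 5 and 0 without CD26+ NFs of either gel.

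**Figure D3:**
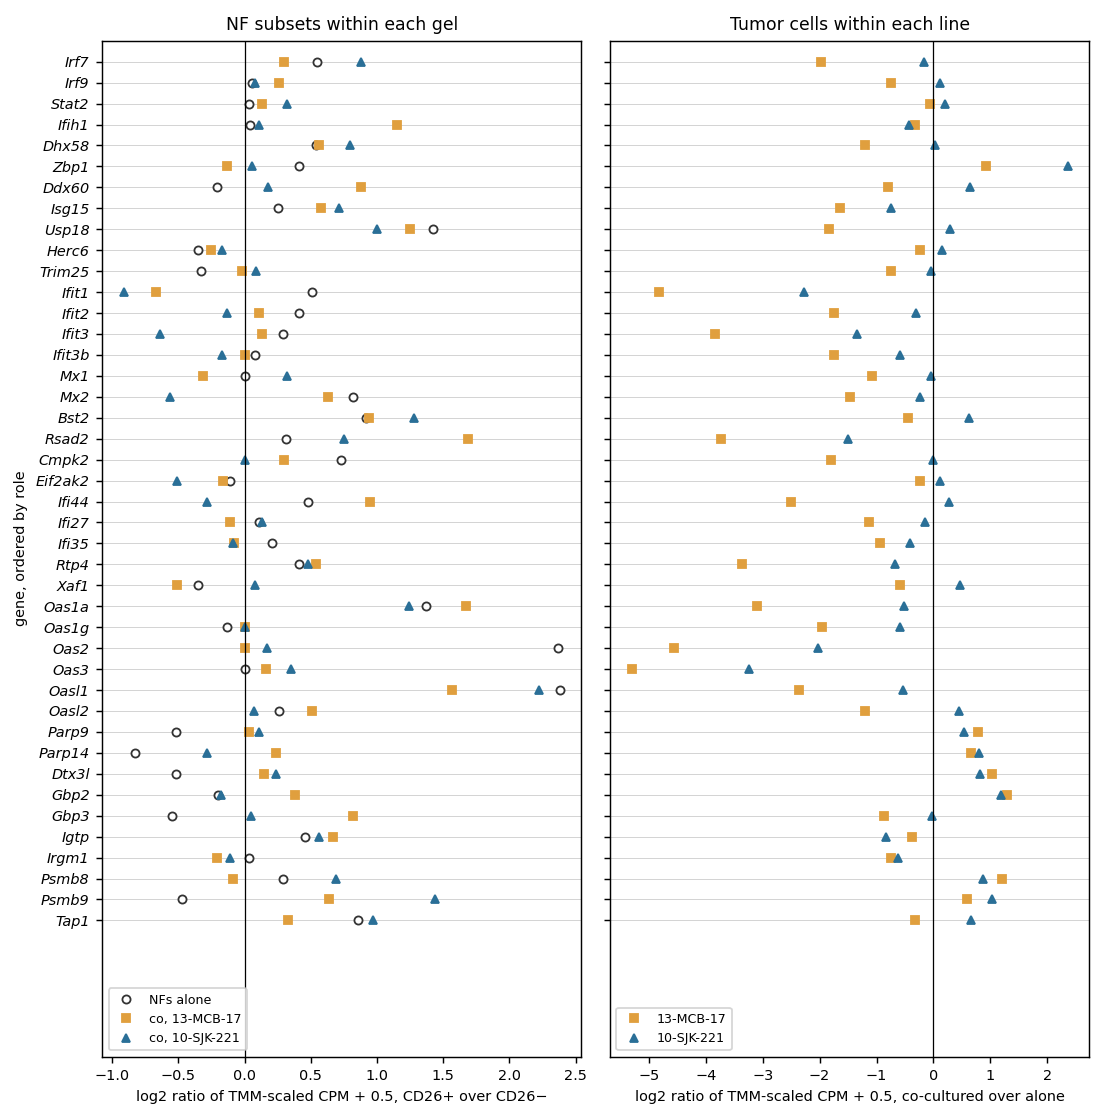
Log2 ratios of TMM-scaled CPM + 0.5 for all 42 genes, on the left of CD26+ over CD26- NFs within each gel and on the right of co-cultured over lone tumor cells within each line, with 1 point per pair of libraries. In each gel 28 of 42 ratios on the left were above 0 (29, 34 and 32 in gels 1, 4 and 5 without TMM), where 47.8%, 42.4% and 49.0% of all genes with a mean of at least 1 CPM were, and on the right 35 of 42 were below 0 for 13-MCB-17 and 22 for 10-SJK-221.

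The next comparison asked how co-culture with tumor cells was related to these genes in NFs, with gels 4 and 5 set against gel 1. Most members were lower: of 36 tested, 26 fell and 1 rose in co-culture over both subsets, where 22.9% of all genes were called lower and 25.9% higher. The median was -1.06, against 0.02 for all genes. NFs alone came from 1 gel, so any other difference between that gel and the shared gels cannot be told apart from co-culture. Marker levels moved with it: Lyz2 went from 6.02 and 4.07 CPM to 0.173 to 0.964 and the sum of 8 fibroblast markers from 74840 and 69500 CPM (CD26- and CD26+) to 38000 to 41530 and 23320 to 29340. Others were higher in co-culture: Dcn went from 1621 to 2157 and 1909 CPM (CD26-) and from 1943 to 2935 and 2867 (CD26+), as Thy1 did within each subset. Cd68 went from 3.48 and 6.53 to 19.6 to 53.5 CPM, Csf1r from 1.86 and 2.81 to 7.42 to 13.5 and the endothelial sum from 1.37 and 4.91 to between 8.00 and 22.9. The part of these markers in the result was not tested.

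The largest falls among genes with a mean of at least 1 CPM were of Gbp3 (-4.06 ± 0.374, adjusted p = 2.47e-05), Rtp4 (-3.02 ± 0.305, adjusted p = 4.37e-05) and Ifit1 (-2.92 ± 0.442, adjusted p = 0.000547). Isg15 (-0.99 ± 0.219, adjusted p = 0.0046) and Stat2 (-0.80 ± 0.152, adjusted p = 0.00211) fell, while Irf7 (-0.57 ± 0.232, adjusted p = 0.0659) and Bst2 (0.29 ± 0.192, adjusted p = 0.233) did not pass. Oasl1 was the 1 member that rose (1.52 ± 0.358, adjusted p = 0.00656). By role, all 4 sensors, all 4 GTPases, 10 of 12 effectors tested, 3 of 4 ISG15 pathway genes, 2 of 3 transcription factors and 2 of 3 in the Parp group fell, in the oligoadenylate synthetase family 1 of 3 fell and 1 rose, and none of the 3 antigen processing genes was called. Leaving out gel 4 or gel 5 gave 27 and 21 calls, and subtracting the estimated tumor share gave 27.

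Taken by subset, the arm of NFs alone is 1 library, which the fit assumes to vary like the other NF libraries. In this setting 24 of 38 genes fell and 1 rose in CD26- NFs (14.1% and 16.6% of all genes), with a median of -1.44 against 0.02. In CD26+ NFs 21 fell and 1 rose (15.2% and 19.0%), with a median of -0.95 against 0.06. In CD26- NFs Gbp3 (-4.79 ± 0.445, adjusted p = 2.78e-06) and Rtp4 (-3.23 ± 0.454, adjusted p = 0.000109) fell, Isg15 (-1.23 ± 0.303, adjusted p = 0.00752) and Stat2 (-0.91 ± 0.224, adjusted p = 0.00737) fell, Irf7 (-0.61 ± 0.340, adjusted p = 0.194) and Bst2 (0.19 ± 0.275, adjusted p = 0.635) did not pass, and Oasl1 rose (2.33 ± 0.571, adjusted p = 0.007). Oas2 was also called lower, with 10 counts in the lone library and 1 over both co-cultured ones, a ratio of CPM of 21 (95% exact binomial interval 2.99 to 913, counting error only), as was Ifit3b, with 20 counts and 1, a ratio of 42.1 (6.73 to 1740).

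In CD26+ NFs Ifit1 (-3.87 ± 0.494, adjusted p = 4.94e-05) and Gbp3 (-3.36 ± 0.422, adjusted p = 4.25e-05) fell, Stat2 fell (-0.67 ± 0.224, adjusted p = 0.0328), Isg15 (-0.75 ± 0.296, adjusted p = 0.0634), Irf7 (-0.53 ± 0.325, adjusted p = 0.222) and Bst2 (0.40 ± 0.264, adjusted p = 0.264) did not pass, and Oasl1 rose (1.17 ± 0.390, adjusted p = 0.0337). Oas2 fell from 82 counts in the lone library to 2 over both co-cultured ones, a ratio of 85.5 (22.9 to 718), and Ifit3 from 41 to 3, a ratio of 28.5 (9.09 to 144). Ifit3b, with 21 counts in CD26+ NFs alone and 0 in both co-cultured libraries, was at least 6.95-fold lower. In CD26+ NFs Stat2 and Oasl1 lost their call without either co-cultured library. In CD26- NFs Oas2 lost its call without either co-cultured library, Isg15, Oasl1 and Ifit3b without that of gel 4, and Stat2 without that of gel 5. Without co-cultured CD26- NFs of gel 4 or gel 5 the CD26- count was 13 or 20, and DESeq2 gave 16. Without co-cultured CD26+ NFs of gel 4 or gel 5 the CD26+ count was 14 or 16.

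The subsets were then compared in their response to co-culture. In the test of the difference between the 2 responses, 0 of 38 members were called by edgeR and 0 by DESeq2, where 0.364% of all genes were called, and 4 had an unadjusted p under 0.05. All genes were not counted at that unadjusted threshold. The differences (CD26+ minus CD26-) were 0.47 ± 0.432, adjusted p = 0.925 for Isg15, 0.07 ± 0.474, adjusted p = 1 for Irf7, 0.23 ± 0.323, adjusted p = 0.968 for Stat2 and 0.20 ± 0.379, adjusted p = 0.991 for Bst2.

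In tumor cells, co-cultured and lone cells were compared with the line as a block. Of 39 genes tested, 12 fell and 6 rose (11.5% and 10.8% of all genes), with a median of -0.65 against 0.01. The genes that fell were led by Ifit1 (-6.10 ± 0.605, adjusted p = 0.000391), Oas3 (-5.26 ± 0.369, adjusted p = 8.73e-05) and Oas2 (-5.00 ± 0.436, adjusted p = 0.000217) and included Isg15 (-1.31 ± 0.249, adjusted p = 0.00709), Irf7 (-1.23 ± 0.367, adjusted p = 0.045), Ifit3, Rsad2, Rtp4, Oas1a, Oasl1, Ifi35 and Irgm1. Those that rose were Zbp1 (1.65 ± 0.332, adjusted p = 0.00907), Psmb8 (1.35 ± 0.299, adjusted p = 0.0138), Gbp2 (1.25 ± 0.102, adjusted p = 0.000158) and all 3 of Parp9, Parp14 and Dtx3l. Stat2 (0.07 ± 0.139, adjusted p = 0.76) and Bst2 (0.06 ± 0.214, adjusted p = 0.876) were not called.

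The lines contributed unequally. In 13-MCB-17 cells 35 of 42 genes were lower in co-culture, with a median log2 ratio of TMM-scaled CPM + 0.5 of -1.01 (51.1% of all genes with a mean of at least 1 CPM were higher), and in 10-SJK-221 cells 22 were lower and 19 higher, with a median of -0.03 (50.8% of all genes higher). Of the 39 tested, 20 were lower in both lines and 7 were higher in both, where 36.4% and 38.4% of all genes were. The call count was 4 without 13-MCB-17 cells alone, 5 without co-cultured 13-MCB-17 cells, 17 without either 10-SJK-221 library, 30 with no filter on low counts and 0 with the line left out of the fit. With a tumor library left out, the fit used the 9 remaining libraries of both cell types, so the spread came from NFs. The share of all genes called is not given for these alternative settings, so the counts do not tell these genes from others. Isg15, Irf7, Ifit3, Rsad2, Rtp4, Oas1a, Oasl1, Dtx3l and Psmb8 lost their call without either 13-MCB-17 library, and Irf7 had log2 ratios of -1.98 in 13-MCB-17 and -0.16 in 10-SJK-221 cells. Oas2 lost its call without 13-MCB-17 cells alone. Parp9, Parp14, Ifi35 and Irgm1 lost their call without any one of the 4 tumor libraries, and Zbp1 lost its call without either 10-SJK-221 library. Cd68 moved with these libraries, at 299 and 93.1 CPM alone and 80.5 and 34.8 in co-culture (13-MCB-17 and 10-SJK-221), and its part in the result was not tested.

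Between the lines, 15 of 39 genes were lower in 10-SJK-221 than in 13-MCB-17 cells and 0 were higher (8.54% and 5.93% of all genes), with a median of -0.81 against 0. The largest were Rtp4 (-3.29 ± 0.588, adjusted p = 0.00799), Oasl1 (-3.29 ± 0.419, adjusted p = 0.00172) and Psmb8 (-3.04 ± 0.313, adjusted p = 0.000642). Irf7 (-1.85 ± 0.370, adjusted p = 0.0131), Isg15 (-1.04 ± 0.249, adjusted p = 0.0276), Stat2 (-0.98 ± 0.140, adjusted p = 0.00298) and Bst2 (-1.22 ± 0.216, adjusted p = 0.00773) were also lower, as were Irf9 and Oas1a, Oas2, Oas3 and Oasl2. In cells grown alone 39 of 42 genes were higher in 13-MCB-17 after TMM scaling (median log2 ratio 1.26, with 51.6% of all genes higher), and in co-culture 30 of 42 were (median 0.23, 50.2%). Psmb8 had log2 ratios of 2.24 alone and 2.57 in co-culture and Stat2 of 1.10 and 0.83, while Rtp4 had 3.03 and 0.34, and the difference between cultures was not tested. Without either library of tumor cells alone the count was 1, and without either co-cultured one it was 15, which in each case rests on the 1 pair of tumor libraries that was left, with the spread taken from NFs. Ifit1, also among the 15 genes, turned its sign without either library of tumor cells alone. Each line stands in 1 library per culture, so a line and its gel cannot be told apart.

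NFs were then compared with tumor cells, in fits that did not hold the tumor line. Differences between the lines thus counted as spread between libraries. For cells grown alone, 6 of the 42 genes were higher in NFs and 7 lower (28.4% and 27.1% of all genes), with a median of -0.06 against 0.02. Psmb8 (3.28 ± 0.972, adjusted p = 0.0201), Ifih1 (2.16 ± 0.490, adjusted p = 0.00593) and Tap1 (2.10 ± 0.357, adjusted p = 0.00133) were the highest. Among the lower, Oas3, at 0 counts in both NF libraries, was at least 134-fold lower and Mx1 at least 13.7-fold lower against the floor (48.9-fold and 7.84-fold without 13-MCB-17 cells alone), followed by Rsad2 (-6.52 ± 1.46, adjusted p = 0.00722) and Ifi44 (-3.31 ± 1.21, adjusted p = 0.0453). Bst2 was lower (-1.65 ± 0.511, adjusted p = 0.0239), and Isg15 (-0.02 ± 0.429, adjusted p = 0.98), Irf7 (-1.52 ± 0.712, adjusted p = 0.102) and Stat2 (0.68 ± 0.375, adjusted p = 0.158) did not pass. Ifi44 turned to 0.09 without 13-MCB-17 cells alone, and Bst2 lost its call without that library or without CD26- NFs alone. Without that library the count was 18, and it was 20 without 10-SJK-221 cells alone.

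In shared gels 15 of 42 were lower in NFs than in the tumor cells beside them and 4 were higher (24.2% and 27.7% of all genes), with a median of -0.57 against 0.06. Gbp2 (-3.64 ± 0.150, adjusted p = 8.07e-07) and Ifi44 (-3.74 ± 1.21, adjusted p = 0.0302) were among the lowest. Oas3 had 3 counts over 4 NF libraries and 24 over both tumor libraries, a ratio of 14.4 (4.39 to 74.9). Ifit1 (2.84 ± 1.04, adjusted p = 0.0483), Tap1 (1.65 ± 0.322, adjusted p = 0.00297) and Irgm1 (1.17 ± 0.286, adjusted p = 0.00928) were the highest. Ifit1 and Oas3 lost their call without any one of the 6 libraries of shared gels, and Ifi44 and Bst2 each without 5 of them. Bst2 was lower (-1.24 ± 0.416, adjusted p = 0.0351) but not with the gel as a block (-1.10, adjusted p = 0.0551), and Isg15 (0.40 ± 0.393, adjusted p = 0.425), Irf7 (-0.50 ± 0.613, adjusted p = 0.523) and Stat2 (-0.16 ± 0.324, adjusted p = 0.704) did not pass. With the tumor share subtracted from NFs the count was 20. It was 12 or 13 without any one NF library, 14 without co-cultured 13-MCB-17 cells and 12 without co-cultured 10-SJK-221 cells.

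A comparison added after these values were seen set the co-culture response of NFs against that of tumor cells. Of 42 genes, 7 had a response that was lower in NFs than in tumor cells and 0 a higher one (8.15% and 12.0% of all genes), with a median difference of -0.54 against 0.06. These were Gbp2 (-3.93 ± 0.234, adjusted p = 9.38e-05), Zbp1 (-3.51 ± 0.702, adjusted p = 0.0104), Gbp3 (-3.50 ± 0.621, adjusted p = 0.00637), Xaf1, Herc6, Dtx3l and Parp9, while Isg15 (0.42 ± 0.581, adjusted p = 0.682), Irf7 (1.02 ± 0.944, adjusted p = 0.502), Stat2 (-0.83 ± 0.494, adjusted p = 0.271) and Bst2 (0.41 ± 0.662, adjusted p = 0.735) did not pass. This fit did not hold the tumor line. With the line as a term 13 genes were lower and 2 higher (30.8% of all genes called), the latter Oasl1 (3.93 ± 0.567, adjusted p = 0.000303, against 4.19 ± 1.46, adjusted p = 0.0789 without the line) and Ifit1, and Stat2 was called (-0.88, adjusted p = 0.0137). Without the line term Oasl1 was also called by DESeq2, with no filter on low counts and without 10-SJK-221 cells alone. The count in that fit was 12 without 13-MCB-17 or without 10-SJK-221 cells alone, and 5 to 8 without any other library.

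**Figure D4:**
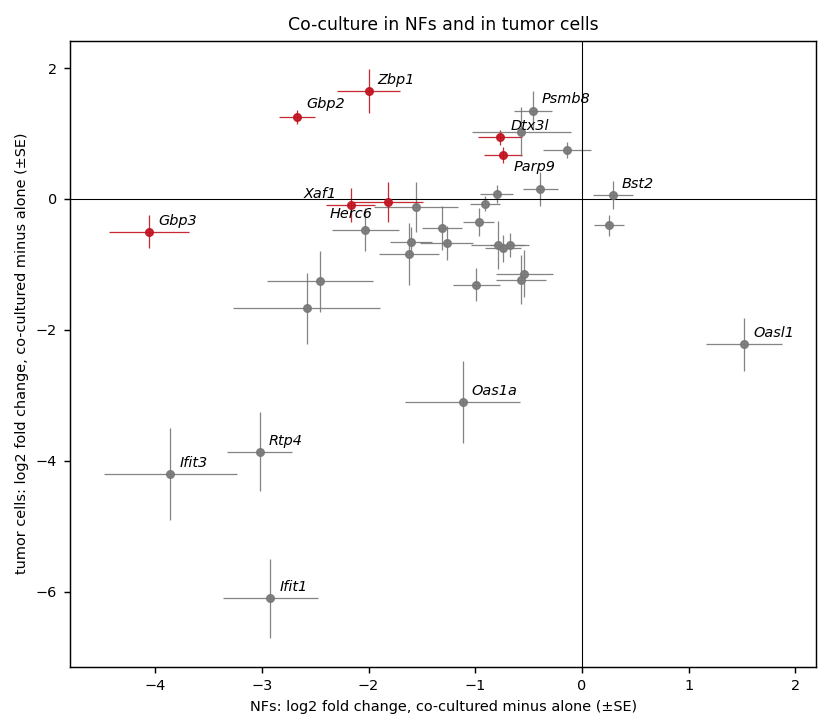
Log2 fold change of co-cultured over lone cells, in NFs over both subsets (horizontal) and in tumor cells (vertical), for the 35 genes tested in both, with SE bars. Red points are the 7 genes whose responses differed, of which Gbp2, Zbp1, Dtx3l and Parp9 fell in NFs and rose in tumor cells, and Oasl1 stands far to the lower right, having risen in NFs and fallen in tumor cells, a difference that did not pass in the fit without the tumor line.

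Other genes of the pathway were given by a list of 104 genes that excludes the 42. Interferon transcripts were scarce: Ifnb1, Ifng, Ifna1, Ifna4, Ifna5, Ifna6 and Ifnk had 0 counts in all 10 libraries, and the highest ligand was Ifnab, absent from lone NFs and at 0.424 to 0.806 CPM when co-cultured (39 counts over 4 libraries, at least 2.86-fold higher). The receptor subunits were present throughout, Ifnar1 at 84.0 to 116 CPM and Ifnar2 at 25.7 to 53.0. In the culture comparison of NFs, 47 of 79 pathway genes tested fell and 10 rose (22.9% and 25.9% of all genes). Irf1, a factor of the interferon-γ response, fell from 113 and 99.0 CPM in lone CD26- and CD26+ NFs to 40.3 to 43.1 CPM with co-culture (-1.31 ± 0.114, adjusted p = 1.7e-05) and the RNA sensor Tlr3 fell from 13.4 and 7.72 to 1.93 to 3.45 (-2.06 ± 0.277, adjusted p = 0.000257). Iigp1, an immunity-related GTPase, fell further (-5.26 ± 0.290, adjusted p = 1.22e-06), while Ifnar1 (0.23 ± 0.121, adjusted p = 0.148) and Ifnar2 (-0.25 ± 0.143, adjusted p = 0.17) were not called.

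By subset, 37 of 86 pathway genes fell and 10 rose in CD26- NFs (14.1% and 16.6% of all genes), Iigp1 among the former (-5.86 ± 0.405, adjusted p = 1.73e-07), and 33 fell and 7 rose in CD26+ NFs (15.2% and 19.0%), where Irf8 was highest (2.60 ± 0.806, adjusted p = 0.0243). Tnfsf10, with 22 counts in lone CD26+ NFs and 0 in both co-cultured libraries, was at least 7.28-fold lower. The test of the difference between these responses called 0 of 86 (0.364% of all genes). Between the subsets, 5 of 79 pathway genes were higher in CD26+ NFs over 3 gels and 0 lower (3.93% and 3.60% of all genes), led by Ifnlr1, a subunit of the interferon-λ receptor (3.23 ± 0.582, adjusted p = 0.014), with Trafd1 the smallest (0.57 ± 0.128, adjusted p = 0.0305). Ifnlr1 had 3, 2 and 2 counts in CD26- NFs of gels 1, 4 and 5, at or under the floor. CD26+ NFs of these gels had 17, 34 and 18. In co-culture alone 5 of 86 were higher and 0 lower (3.48% and 2.53%), again with Ifnlr1 (3.62 ± 0.771, adjusted p = 0.0134) and Trafd1 (0.65 ± 0.172, adjusted p = 0.0427) at the ends. Irf1 (-0.25 ± 0.112, adjusted p = 0.193) and Tlr3 (-0.75 ± 0.282, adjusted p = 0.138) were not called over 3 gels.

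In tumor cells 16 of 74 pathway genes fell in co-culture and 12 rose (11.5% and 10.8% of all genes), from Slfn2 (-3.00 ± 0.244, adjusted p = 0.000158) to the GTPase Ifi47 (2.62 ± 0.421, adjusted p = 0.00337). Irf1 rose (0.41 ± 0.0965, adjusted p = 0.0178) and Tlr3 fell (-0.63 ± 0.157, adjusted p = 0.0226). Between lines 14 were lower in 10-SJK-221 and 3 higher (8.54% and 5.93%), with Phf11d among the lower (-2.96 ± 0.419, adjusted p = 0.00278). Nmi had 0 counts in both 13-MCB-17 libraries and 96 over both of 10-SJK-221, at least 17.0-fold higher. Of 86 tested between NFs and tumor cells, 33 were higher and 16 lower in NFs for cells grown alone (28.4% and 27.1% of all genes), and 21 were higher and 26 lower in shared gels (27.7% and 24.2%). Parp11, with 0 counts in all 4 tumor libraries, was at least 98.8-fold higher in NFs alone and at least 47.6-fold higher in shared gels. Slfn5 was at 377 and 379 CPM in lone NFs, 29.1 to 39.2 in shared gels and 0 to 0.272 in tumor cells. Aim2 was low in NFs alone (-6.60 ± 0.591, adjusted p = 3.31e-05) and Gbp8 in those of shared gels (-4.68 ± 0.780, adjusted p = 0.00195). In gels 4 and 5 Gbp8 had 4 and 5 counts in CD26- NFs and 0 in CD26+ NFs. The tumor cells of these gels had 24 and 23. In the added comparison 19 of 86 responses were lower in NFs and 11 higher (8.15% and 12.0% of all genes), Irf1 (-1.73 ± 0.257, adjusted p = 0.00298) among the lower and Iigp1 the lowest (-5.40 ± 0.613, adjusted p = 0.000878).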

How the data were processed

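The 42 genes and all gene lists were chosen with earlier results of these data known. The authors deposited raw read counts per gene for all 10 libraries in 1 table, without normalization, made from stranded mRNA libraries. The submitters' processing notes name HISAT2 2.2.1 and GRCm38. The counting program and its use of strand are not given in the sources used here. Of 55486 gene IDs, 99.38% were in GENCODE M21 (GRCm38), 99.35% of these at the same position. A line without an ID held 0 counts and was left out. The 10 GEO samples were grouped by cell, culture and line from their labels.

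Counts were fitted with edgeR 4.0.16 in R 4.3.3 (TMM scaling, filterByExpr, quasi-likelihood F test, Benjamini-Hochberg over all genes tested, adjusted p under 0.05). SE is the absolute log2 fold change over the square root of F. NF comparisons used 6 NF libraries, tumor comparisons 4 tumor libraries, and comparisons of both all 10 in 6 groups. Levels are CPM of the library total, and ratios within gels and lines used TMM-scaled CPM with a pseudocount of 0.5. Fold changes are printed for the 3 highest and 3 lowest called genes with a mean of at least 1 CPM, for Isg15, Irf7, Stat2 and Bst2 always, and for the ends of the pathway list with Irf1, Tlr3, Ifnar1 and Ifnar2 where their values bear on a comparison. Other called genes are named only, or given by counts. A gene with 0 counts in a group is given as a bound against the floor, and one with 1 to 3 counts as a ratio with its counting interval. Some items are not reported here. The fits were tested on simulated counts.

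NF subsets of 1 gel share that gel per the labels. The differences of gel 4 and gel 5 in the 2 subsets had a Pearson r of 0.197 over 14179 genes. Alternatives were DESeq2 1.42.0, RLE scaling, other filters on low counts, a gel or line block, leaving out libraries, and a log2 fold change beyond 2. Added after seeing the data were ratios without TMM, the subtraction of the estimated tumor share (the median epithelial ratio times the tumor counts of the same gel) and the comparison of NF and tumor responses, also with the tumor line as a term. Of the promoter windows of these genes, 34 of 35 shared 20 bases with a transcript of the same gene in the printed orientation.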

Additional observations from a re-analysis of the deposited data

Results flagged for a closer look

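The co-culture response differed between NFs and tumor cells, in a test of the difference itself, for 7 genes: Gbp2 (-3.93 on the log2 scale, NFs minus tumor cells), Zbp1 (-3.51), Gbp3 (-3.50), Xaf1 (-1.99), Herc6 (-1.76), Dtx3l (-1.70) and Parp9 (-1.40). All 7 were lower in NFs, where 8.15% of all genes tested were called lower and 12.0% higher. The comparison was chosen after the values had been seen, and its fit did not hold the tumor line. Leaving out 1 library at a time lost Herc6 or Xaf1 in 8 of 10 settings and none of the other 5 in any. With the line as a term and all libraries kept, more genes were called lower in NFs. In that fit Oasl1 and Ifit1 were called higher, as given above. Of the genes with a printed fold change for culture in tumor cells, Bst2 and Stat2 had log2 ratios of opposite sign in the 2 lines. Neither was called for culture in tumor cells. Other members also had opposite signs and lay further apart, such as Ifi44 (-2.5 in 13-MCB-17 and 0.27 in 10-SJK-221 cells), Usp18 (-1.83 and 0.29) and Oasl2 (-1.2 and 0.45). Bst2 had a log2 ratio of 0.62 in 10-SJK-221 cells and of -0.45 in 13-MCB-17 cells, a difference of 1.07, and Stat2 differed by 0.27 (0.21 and -0.06). With 1 pair of libraries per line these differences were not tested.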

How the results depend on the processing

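Of 116 alternative counts, 79 were within 1.5 times the count given above and 37 were not. A log2 fold change beyond 2 left 2 genes between subsets over 3 gels, 3 between subsets in co-culture, 11 for culture over both subsets, 12 for culture in CD26- NFs, 10 for culture in CD26+ NFs, 8 for culture in tumor cells, 8 between lines, 8 and 8 between NFs and tumor cells alone and in shared gels, and 3 for the difference between NF and tumor responses, by its own construction. With no filter on low counts there were 2 genes between subsets in co-culture, 30 for culture in tumor cells, 28 between lines and 11 for the difference between NF and tumor responses. DESeq2 gave 2 between subsets in co-culture and 16 for culture in CD26- NFs. Subtracting the tumor share gave 3 between subsets in co-culture, and the tumor line as a term gave 15 for the difference between NF and tumor responses. Leaving out 1 gel or library gave 0 to 3 (subsets over 3 gels), 0 to 2 (subsets in co-culture), 13 to 20 (culture in CD26- NFs), 14 to 16 (culture in CD26+ NFs), 4 to 17 (culture in tumor cells), 1 to 15 (lines), 10 to 20 and 12 to 14 (NFs against tumor cells alone and in shared gels) and 5 to 12 (NF against tumor response), with fewer samples in each fit. The share of all genes called is mostly not given beside the alternative counts, here or above. These counts therefore do not tell the interferon-stimulated genes from others. The cause of the other changes was not tested.

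With the gel as a replicate block the count of genes called between subsets was 5 over 3 gels and 7 in co-culture, and that between NFs and tumor cells of shared gels was 19. With the line block left out, culture in tumor cells had 0 called genes and Bst2 stood at -0.13. Of 28 fold changes of named genes refitted with a block, 2 changed their call, Isg15 between subsets in co-culture (0.73, adjusted p = 0.0396 with edgeR) and Bst2 between NFs and tumor cells of shared gels (-1.10, adjusted p = 0.0551), and the others kept theirs.

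Of 86 fold changes of named genes, 57 were called, and 1 of these turned its sign under any alternative: Ifi44 between NFs and tumor cells alone (-3.31), which ranged from -4.23 to 0.09 with 1 library left out. The other turns were of Isg15, Irf7, Stat2 and Bst2 where they were not called. Isg15 between NFs and tumor cells alone was 0.01 with RLE scaling and with DESeq2, 0.02 with no filter or at least 1 CPM in 2 libraries, and -0.56 to 0.86 with a library left out. With a library left out, the ranges were -2.31 to 0.40 for Irf7 between NFs and tumor cells alone, -0.51 to 0.31 for Stat2 between them in shared gels, -0.13 to 0.46 for Bst2 with culture in CD26- NFs, -0.15 to 0.34 and -0.06 to 0.53 for Irf7 and Bst2 in the difference between subset responses, -0.06 to 0.22 and -0.46 to 0.64 for Stat2 and Bst2 with culture in tumor cells, and -0.46 to 0.96, -0.89 to 1.81 and -0.72 to 1.04 for Isg15, Irf7 and Bst2 in the difference between NF and tumor responses. Over all 813 alternative values, 681 kept their direction and side of the threshold, 102 no longer passed, 8 newly passed and 22 turned their sign.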
